A study of Mus musculus with 8 samples.

Results

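The mitochondrial carrier family was taken as every gene whose symbol in the deposited tables begins with *Slc25a* followed by a number. It held 47 genes with 69 listed transcripts, of 24063 genes and 33068 transcripts in all. The choice used the symbol and no measured value. RNA-Seq was carried out on 8 tubuloid cultures, a 3D model in which fragments of kidney tubules from young mice grow between layers of Matrigel in medium with HGF, EGF and FGF. Of these, 4 cultures (numbers 6, 12, 17 and 22) received 20 ng/ml GDNF for 24 h and 4 controls (numbers 3, 7, 14 and 21) received the same medium without it, and all were collected on culture day 7, which was 6 days after the pulse. All cultures carried the genotype Pkd2fl/fl Pax8rtTA TetOCre mTmG, in which a *Pax8* promoter limits the inducible Cre to renal epithelium, and doxycycline, which starts the Cre, is not described for this experiment. The paper's results give the pulse as 24 h, while its methods allow a longer time in medium with GDNF. Donor age is given as postnatal day 7 to 10 in the sample labels and as day 4 to 7 in the methods. The sources used here do not say whether each culture came from its own animal, so the p-values measure only the spread between these cultures.

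Mitochondrial carriers are mostly proteins of the inner mitochondrial membrane, built from repeats that each span the membrane as a pair of helices. Each moves a small set of solutes between cytosol and matrix, often by exchange: ADP for ATP, phosphate, di- and tricarboxylates, amino acids, acyl groups, cofactors, iron or nucleotides. Kidney tubules depend on them because sodium reabsorption is fuelled largely by mitochondrial ATP. GDNF acts through the Ret receptor and guides outgrowth of the ureteric duct, which forms the collecting duct system. The comparison asked which carriers differ in RNA level between pulsed and control tubuloids.

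Total counts per culture ranged from 72991721 to 97490625 and included reads counted in several transcripts of a gene. The factors that correct for library composition (TMM) were 0.790 in control culture 3, 0.963 to 0.982 in the other controls and 1.07 to 1.11 in the GDNF cultures. By *Xist* and Y-linked RNA, control cultures 3 and 7 and GDNF cultures 6 and 12 were of a kind with *Xist* and the other 4 of a kind with Y-linked RNA, while control 3 and GDNF 6 also held 1.502 and 6.46 TPM of Y-linked RNA. The summed level of 6 tubule epithelium markers ranged from 348 to 3145 TPM in controls and from 869 to 1245 TPM after GDNF. *Krt18* and *Krt8* made up most of the group means of that sum, with log2 fold changes of -1.25 and -1.45. *Epcam* and *Cdh1* had -0.54 and -0.28, and *Cdh16* and *Pax8* had 0.32 and 0.05. Of 6 stroma markers the sum was 186 TPM in control 3 and 236 TPM in GDNF 6, against 588 to 1449 TPM in the other controls and 1001 to 1249 TPM in the other GDNF cultures. Markers of proximal tubule summed to 4.07 to 8.84 TPM in controls and 9.74 to 12.5 TPM after GDNF. *Slc5a2* made up most of that sum (means of 6.52 and 11.2 TPM), while *Cubn* had a log2 fold change of -0.77. Endothelial markers summed to 14.2 to 40.2 and 28.3 to 55.8 TPM, mostly from *Flt1* and *Emcn*, which had log2 fold changes of 0.81 and -0.15. *Pecam1* and *Kdr* had -1.11 and -0.75, and *Tek*, at means of 0.019 and 0.157 TPM, had 2.69. Immune markers summed to at most 5.89 TPM in controls and 9.27 TPM after GDNF, with *Cd3e* at 0 throughout. Collecting duct markers summed to 1.98 to 7.48 TPM in controls and 2.41 to 15.7 TPM after GDNF. Of these, *Scnn1b*, *Avpr2* and *Aqp3* had log2 fold changes of 1.01, -0.14 and -0.28. Markers of thick limb and distal tubule summed to 0.523 to 2.97 and 0.626 to 3.58 TPM. The part of any of these cell types in the values of the carriers was not tested, and in such bulk cultures fewer cells of a type and less RNA per cell cannot be told apart.

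Promoter sequence is shown for 4 carriers with values in both directions: *Slc25a4* and *Slc25a5*, the most abundant carriers, lower after GDNF in CPM, and *Slc25a36* and *Slc25a42*, which were higher. Each sequence is the 250 bases before the RefSeq gene start in GRCm38.p6, 5′ to 3′ on the gene's strand. These are chr8:46211063-46211312 (minus strand) for *Slc25a4*, chrX:36795347-36795596 (plus) for *Slc25a5*, chr9:97111042-97111291 (minus) for *Slc25a36* and chr8:70212282-70212531 (minus) for *Slc25a42*. Capitals mark a match to a searched motif, CCGGAAG (an ETS factor core) in *Slc25a4* and CACGTG (an E-box) in *Slc25a36*.
Slc25a4: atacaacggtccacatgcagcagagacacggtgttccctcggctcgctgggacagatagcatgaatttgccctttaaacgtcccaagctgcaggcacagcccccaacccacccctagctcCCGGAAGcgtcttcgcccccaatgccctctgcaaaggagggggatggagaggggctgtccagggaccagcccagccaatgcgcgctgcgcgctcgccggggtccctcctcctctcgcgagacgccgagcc
Slc25a5: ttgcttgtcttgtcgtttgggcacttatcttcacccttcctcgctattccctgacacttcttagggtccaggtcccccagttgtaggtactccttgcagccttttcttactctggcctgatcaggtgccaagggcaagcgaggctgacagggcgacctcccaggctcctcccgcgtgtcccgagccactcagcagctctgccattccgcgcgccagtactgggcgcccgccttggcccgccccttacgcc
Slc25a36: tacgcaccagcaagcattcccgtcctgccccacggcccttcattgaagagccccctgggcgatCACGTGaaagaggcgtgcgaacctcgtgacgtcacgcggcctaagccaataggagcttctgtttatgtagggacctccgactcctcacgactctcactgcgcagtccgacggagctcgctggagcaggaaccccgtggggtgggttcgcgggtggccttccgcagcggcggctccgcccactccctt
Slc25a42: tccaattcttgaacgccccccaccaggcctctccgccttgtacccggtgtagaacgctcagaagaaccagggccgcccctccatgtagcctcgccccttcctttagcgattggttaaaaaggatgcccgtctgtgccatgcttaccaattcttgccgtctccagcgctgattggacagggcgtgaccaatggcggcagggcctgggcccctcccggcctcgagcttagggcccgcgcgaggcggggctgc

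The ETS match of *Slc25a4* began 130 bases before the start and the E-box of *Slc25a36* 187 bases before it, and the other 2 stretches held no match. A match is only a run of letters, and its absence says nothing of a factor. The GC content of the 4 stretches was 64.8%, 61.6%, 64.4% and 63.6% in the order printed, where the median was 57.4% over 46 carrier windows and 52.4% over 32851 windows of all genes. RefSeq windows of 300 bases, 250 before and 50 after the start, were found for 36 of the 47 carriers. On either strand, CCGGAAG was present for 7 of 36 carriers (19.4%) and for 9.93% of 27025 genes, in 8.86% of all windows. CACGTG was also present for 7 of 36 carriers (19.4%), against 8.09% of genes and 7.15% of windows. The NRF1 core GCATGCGC was present for 2 carriers (5.56%) against 3.05% of genes and 2.71% of windows, and TATAAA for 2 (5.56%) against 15.7% of genes and 13.6% of windows. No motif contains the letters of another. Of the 4 carriers lower after GDNF at an unadjusted p of 0.05, 2 had the ETS letters, and of the 3 higher 0 did. The E-box letters were present in 1 of the 4 and 1 of the 3, and the NRF1 and TATAAA letters in 0 of either. These shares are a description of the windows.

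The carriers covered a wide range of levels. In the authors' TPM, which is scaled by transcript length so that genes can be compared, 3 carriers had a mean of at least 100 TPM over the 8 cultures, 22 lay between 10 and 100 TPM, 16 between 1 and 10 TPM and 6 below 1 TPM. The value of a gene is that of its transcript with the most counts. *Slc25a4* and *Slc25a5*, the adenine nucleotide translocases that exchange cytosolic ADP for matrix ATP, and *Slc25a3*, the phosphate carrier that supplies ATP synthase, were the highest. They were followed by *Slc25a17*, a peroxisomal carrier of coenzyme A and related cofactors, *Slc25a1*, the citrate carrier, *Slc25a11*, the oxoglutarate carrier, *Slc25a39*, needed for mitochondrial glutathione uptake, and *Slc25a20*, the carnitine-acylcarnitine carrier. Neighbours in this order overlapped in control cultures (*Slc25a4* with *Slc25a5*, and *Slc25a17*, *Slc25a1*, *Slc25a11* and *Slc25a39* with each other), whereas *Slc25a3* lay below *Slc25a5* and *Slc25a20* below the 4 others without overlap.

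**Figure D1:**
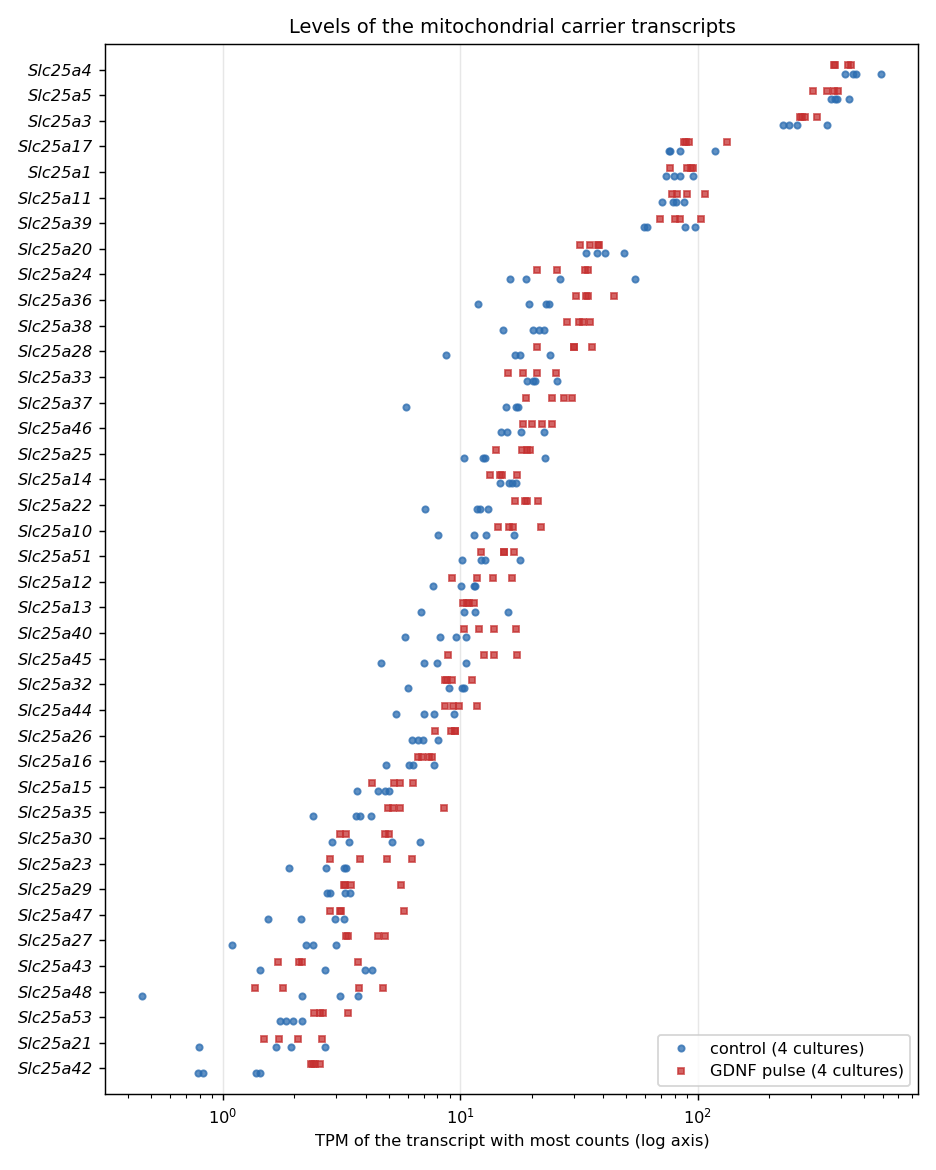
TPM (log axis) of 40 carriers with a mean of at least 1 TPM, ordered by mean, with a circle for each of 4 control cultures and a square for each of 4 GDNF cultures. *Slc25a4*, *Slc25a5* and *Slc25a3* stand above all others, at 228 TPM or more in every culture.

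*Slc25a3* was at 262, 242, 228 and 350 TPM in control cultures 3, 7, 14 and 21 and at 319, 273, 282 and 269 TPM in GDNF cultures 6, 12, 17 and 22. The groups overlapped on this scale, with the highest value in a control. In counts scaled to library size with TMM (CPM), its mean was 272 ± 60.4 in controls and 218 ± 28.2 after GDNF (SD, n = 4), so the sign of the difference depended on the scale.

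*Slc25a17* was at 119, 83.9, 75.6 and 76.5 TPM in the controls and at 133, 92.1, 89.1 and 87.6 TPM after GDNF, in the same order of cultures. Control 3 and GDNF 6 stood above the rest of their groups, and these were the cultures with the lowest stroma markers. *Slc25a1* was at 79.6, 73.4, 84.4 and 95.4 TPM in controls and 76.5, 95.7, 90.3 and 93.4 TPM after GDNF. *Slc25a11* was at 78.8, 70.4, 80.8 and 87.7 TPM in controls and 106.9, 78.0, 82.0 and 90.4 TPM after GDNF. For both genes the groups overlapped. *Slc25a39* was at 88.2, 59.2, 61.1 and 97.1 TPM in controls and 103.3, 69.5, 79.9 and 84.4 TPM after GDNF, and *Slc25a20* at 40.6, 37.5, 49.0 and 33.7 TPM in controls and 37.8, 31.8, 38.3 and 35.0 TPM after GDNF. Both overlapped between the groups, and control cultures 7 and 14 were the lowest for *Slc25a39*.

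The family's summed level ranged from 1669 to 2011 TPM in controls and from 1725 to 2013 TPM after GDNF, so the sums overlapped. Its composition differed: *Slc25a4*, *Slc25a5* and *Slc25a3* together made up 61.8%, 62.2%, 65.0% and 61.3% of it in control cultures 3, 7, 14 and 21, and 57.2%, 55.3%, 57.5% and 54.3% in GDNF cultures 6, 12, 17 and 22. The means were 62.6 ± 1.64% and 56.1 ± 1.55% (SD, n = 4), and no GDNF culture reached a control. *Slc25a4* alone took 22.5% to 31.9% in controls and 20.5% to 22.7% after GDNF. The mean share of *Slc25a5* was 21.3% in controls and 19.0% after GDNF. That of *Slc25a3* was 14.8% and 15.3%, so its share did not fall with the other 2. Their transcripts are short (1106 to 1512 bp), and the part of transcript length in these shares was not tested. The other carriers thus took a larger share after GDNF, a description with no test, since the 3 genes were picked for their level.

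Each carrier was then compared with edgeR's quasi-likelihood test, fitted to all genes. The filter on low counts left 43 of the 47 carriers, and *Slc25a2*, *Slc25a34*, *Slc25a41* and *Slc25a54* were not tested. After Benjamini-Hochberg adjustment over 16557 genes, 0 carriers passed an adjusted p of 0.05, where 0 of all genes did (0.0%), and the smallest adjusted p among carriers was 0.167. At an unadjusted p of 0.05 there were 7 carriers (16.3%) against 22.1% of all genes: 3 were higher after GDNF, where 9.25% of all genes were, and 4 were lower, where 12.9% were. By DESeq2, an alternative that gave 36 carriers an adjusted p, 2 carriers passed (*Slc25a4*, 0.0332, and *Slc25a5*, 0.0351) against 9.16% of 11639 genes. On simulated counts with 2-fold changes, edgeR recovered 15.5% of the changed genes at this threshold, and 33.5% of the DESeq2 calls were false. The count of 0 by edgeR therefore does not show that the carriers were alike.

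The CPM values did not overlap between groups for 5 carriers higher after GDNF (*Slc25a22*, *Slc25a35*, *Slc25a36*, *Slc25a38* and *Slc25a42*), where 6.99% of all genes were of this kind, and for 3 lower ones (*Slc25a4*, *Slc25a5* and *Slc25a14*), where 6.26% were. In TPM, which has no composition correction, 8 carriers lay above the controls without overlap, against 20.6% of all genes, and 0 below, against 0.61%. Neither the share past the unadjusted p nor that without overlap was tested for the list. The median log2 fold change of the 43 carriers was -0.12 and that of all genes tested 0.03. There were 17 carriers above 0 (39.5%) and 26 below, where 52.5% of all genes were above 0. Scaled by library size only, the medians were 0.10 and 0.25. Under that scaling 25 carriers lay above 0, and the share of all genes was not computed. The direction of the carriers as a list thus depended on the scaling, while their median lay below that of all genes under both. These differences from all genes were not tested. In TPM, 32 of the 41 carriers with a mean of at least 1 TPM (78.0%) and 78.6% of 13698 such genes had a higher mean after GDNF.

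**Figure D2:**
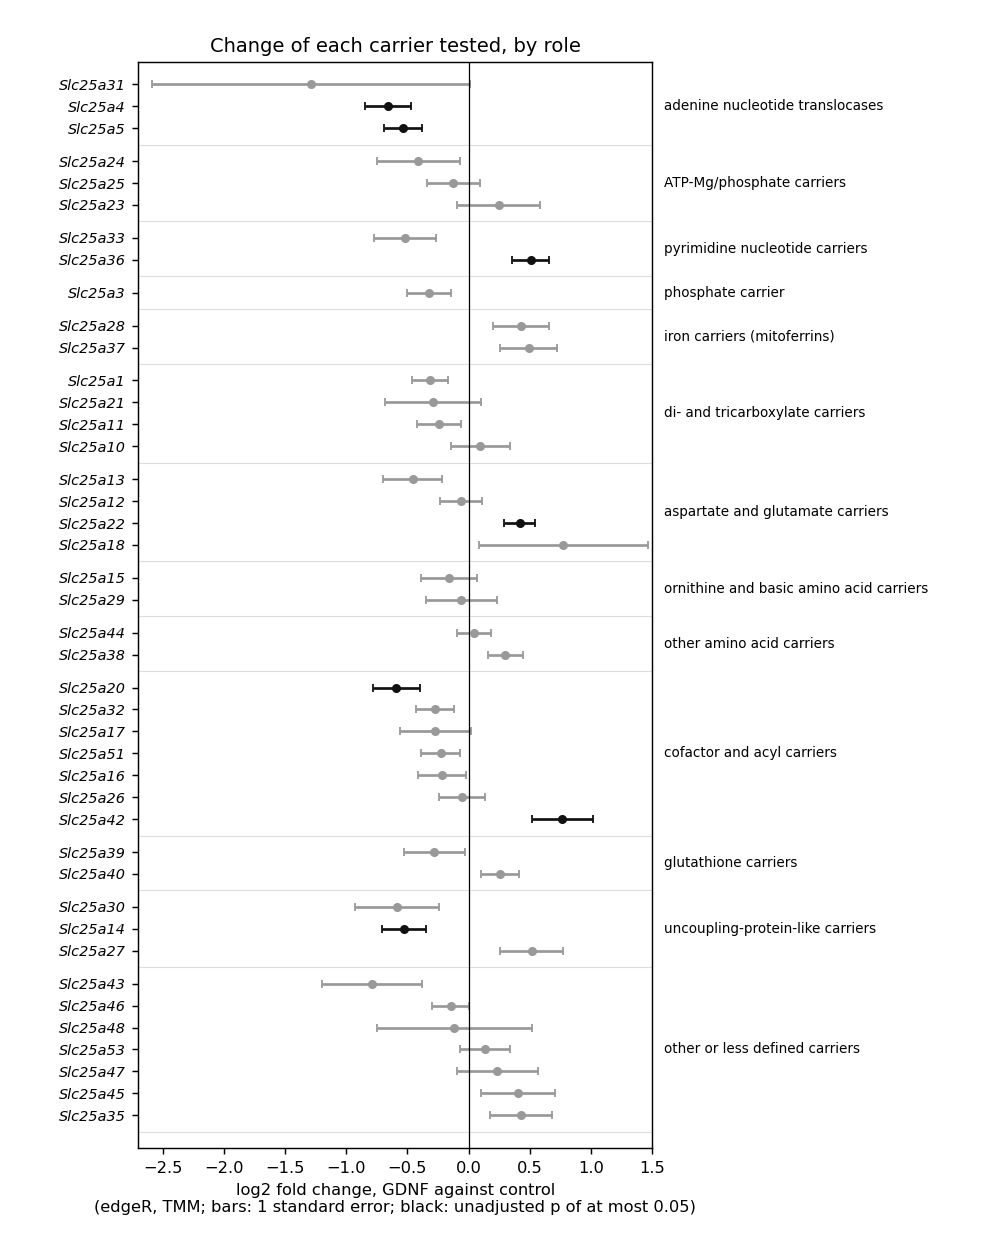
Log2 fold change of GDNF against control for 42 of the carriers tested, grouped by transport role, with bars of 1 standard error from edgeR. Black points have an unadjusted p of at most 0.05 (4 below 0 and 3 above). Of the 42 points 26 lie below 0, where 52.5% of all genes tested lie above 0.

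Among the nucleotide carriers, the 2 abundant adenine nucleotide translocases were lower and 1 pyrimidine nucleotide carrier was higher at an unadjusted p of 0.05. *Slc25a4* (chromosome 8, 46207168 to 46211062, GRCm38) was at 441, 289, 409 and 289 CPM in control cultures 3, 7, 14 and 21 and at 262, 208, 237 and 197 CPM in GDNF cultures 6, 12, 17 and 22. Every GDNF culture was below every control. The means were 357 ± 79.5 and 226 ± 29.5 CPM (SD, n = 4), a log2 fold change of -0.66 (standard error 0.19, unadjusted p = 0.0052, adjusted p = 0.167, edgeR). In TPM the groups overlapped, at 419 to 594 in controls and 375 to 443 after GDNF.

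*Slc25a5* (chromosome X, 36795597 to 36798808) was at 385, 291, 297 and 309 CPM in the controls and 259, 189, 232 and 205 CPM after GDNF, in the same order, again without overlap. Its log2 fold change was -0.54 (standard error 0.16, unadjusted p = 0.0066, adjusted p = 0.167, edgeR), and in TPM its groups overlapped. A processed pseudogene of *Slc25a5* lies in the mouse annotation and could share its reads. The third translocase of the family, *Slc25a31*, known from testis, had 0 to 63 counts per culture.

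The pyrimidine nucleotide carriers *Slc25a36* and *Slc25a33* exchange UTP, CTP and related nucleotides and had log2 fold changes of opposite sign. *Slc25a36* (chromosome 9, 97075281 to 97111041) was at 31.3, 43.9, 37.2 and 41.7 CPM in controls and 50.4, 52.6, 51.8 and 64.1 CPM after GDNF. All GDNF cultures lay above all controls, with culture 22 highest, and TPM did not overlap either (11.9 to 23.5 and 30.7 to 44.3). The log2 fold change was 0.51 (standard error 0.15, unadjusted p = 0.0075, adjusted p = 0.167, edgeR). For *Slc25a33* it was -0.52 (standard error 0.25, unadjusted p = 0.0674, edgeR). The ATP-Mg/phosphate carriers *Slc25a24*, *Slc25a25* and *Slc25a23*, which adjust the matrix adenine nucleotide pool under calcium control, had log2 fold changes of -0.41, -0.12 and 0.24, none past the unadjusted threshold. The phosphate carrier *Slc25a3* had -0.32 (standard error 0.18, unadjusted p = 0.108, edgeR), which became -0.20 without control culture 3 and -0.09 with scaling by library size only.

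**Figure D3:**
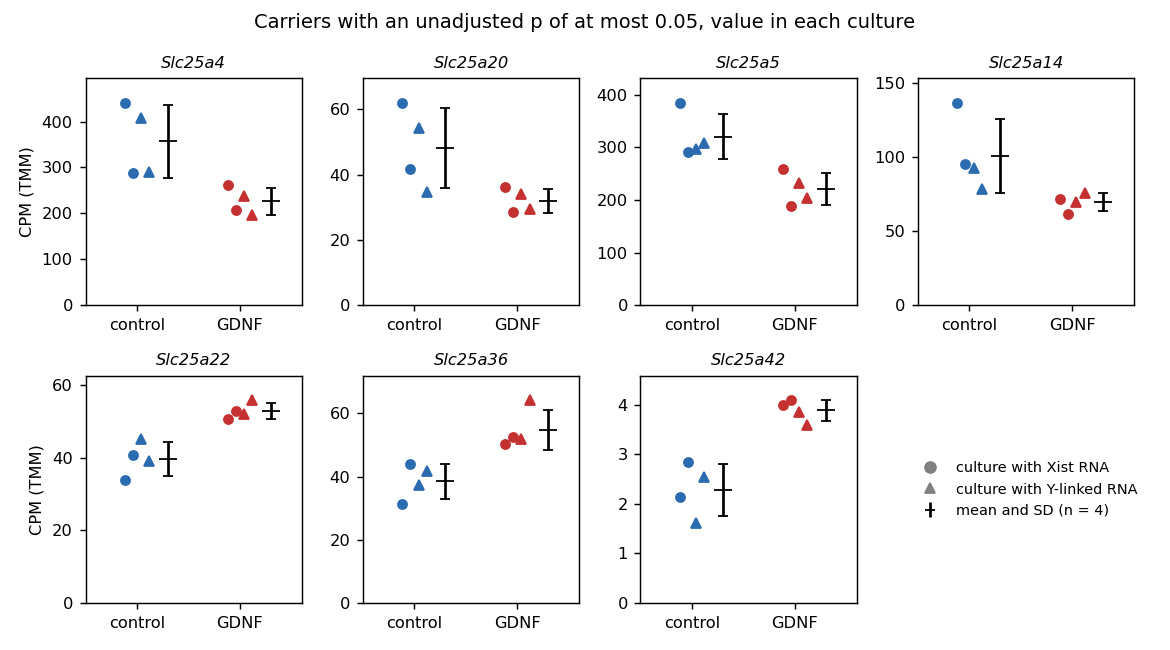
CPM with TMM scaling (axes from 0) in each culture for the 7 carriers with an unadjusted p of at most 0.05, with circles for cultures with *Xist* RNA, triangles for those with Y-linked RNA, and the mean and SD of 4 cultures beside them. *Slc25a4*, *Slc25a5* and *Slc25a14* are lower and *Slc25a22*, *Slc25a36* and *Slc25a42* higher after GDNF without overlap, whereas the groups of *Slc25a20* overlap.

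Of the carriers that link the citric acid cycle to the cytosol, *Slc25a22*, a glutamate carrier, was the single member past the unadjusted threshold. *Slc25a22* (chromosome 7, 141429749 to 141437874) was at 33.9, 40.7, 45.2 and 39.1 CPM in controls and 50.8, 53.0, 52.1 and 55.9 CPM after GDNF, with no overlap and with the GDNF cultures close together. Its log2 fold change was 0.42 (standard error 0.13, unadjusted p = 0.0097, adjusted p = 0.167, edgeR), and its TPM did not overlap. *Slc25a12* and *Slc25a13*, the aspartate-glutamate exchangers of the malate-aspartate shuttle, had log2 fold changes of -0.06 and -0.46, and the related *Slc25a18* had 7 to 42 counts per culture. Among di- and tricarboxylate carriers, *Slc25a1* and *Slc25a11* had -0.32 and -0.24 (-0.20 and -0.10 without control culture 3), *Slc25a10*, which exchanges malate or succinate for phosphate, 0.10, and *Slc25a21* -0.29. Scaled by library size only, the value of *Slc25a11* was -0.0036, so its direction was not resolved.

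Among carriers of acyl groups and cofactors, *Slc25a42* was higher and *Slc25a20* lower at an unadjusted p of 0.05. *Slc25a42* (chromosome 8, 70184340 to 70212281), a coenzyme A carrier, was rare, at 2.15, 2.84, 1.62 and 2.54 CPM in controls and 4.00, 4.09, 3.86 and 3.59 CPM after GDNF. No control reached a GDNF culture. This log2 fold change, 0.76 (standard error 0.25, unadjusted p = 0.0120, adjusted p = 0.167, edgeR), was the highest among carriers of at least 1 TPM. *Slc25a20* (chromosome 9, 108662136 to 108684642), which brings acylcarnitines to beta-oxidation, was at 62.0, 41.7, 54.4 and 34.8 CPM in controls and 36.1, 28.4, 34.1 and 29.5 CPM after GDNF. Control 21 fell among the GDNF cultures, so the groups overlapped. Its log2 fold change was -0.59 (standard error 0.19, unadjusted p = 0.0122, edgeR), and with scaling by library size only the unadjusted p was 0.0611. The other 6 genes of this role had unadjusted p-values over 0.05, and *Slc25a17* had -0.27 (standard error 0.29), which turned to 0.085 without control culture 3.

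*Slc25a14* (chromosome X, 48623418 to 48662298), a brain-type uncoupling protein relative, was at 136.9, 95.7, 92.6 and 78.3 CPM in controls and 72.1, 61.5, 69.6 and 76.0 CPM after GDNF. The groups did not overlap, but control 21 and GDNF culture 22 lay close to each other. The log2 fold change was -0.53 (standard error 0.18, unadjusted p = 0.0149, edgeR), and with scaling by library size only p was 0.0776. Its 5 listed transcripts share reads, so its CPM counts them several times, and the level of its leading transcript was 14.7 to 17.2 TPM in controls and 13.3 to 17.4 TPM after GDNF. Its relatives *Slc25a30* and *Slc25a27* had -0.58 (unadjusted p = 0.118) and 0.52 (unadjusted p = 0.0753, edgeR).

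The mitoferrins *Slc25a37* and *Slc25a28*, which import iron for haem and iron-sulfur clusters, had log2 fold changes of 0.49 (unadjusted p = 0.0593) and 0.43 (unadjusted p = 0.0885, edgeR). Their summed level was 14.6 to 41.0 TPM in controls, lowest in control 3, and 40.1 to 63.1 TPM after GDNF. *Slc25a38*, a glycine carrier needed for haem synthesis, was at 18.6 to 22.1 CPM in controls and 22.2 to 29.6 CPM after GDNF, without overlap but with an unadjusted p of 0.0618 by edgeR (log2 fold change 0.30). *Slc25a44*, a branched-chain amino acid carrier, had 0.04. *Slc25a15*, the ornithine carrier of the urea cycle, had -0.16 and *Slc25a29*, a carrier of basic amino acids, -0.06. Of the glutathione carriers, *Slc25a39* had -0.28 and *Slc25a40* 0.26. The value of *Slc25a39* rested on control culture 3, without which it was -0.042, and it was -0.034 with scaling by library size only. Among 9 other or less defined carriers, 7 were tested and none passed the unadjusted threshold. *Slc25a46*, an outer membrane protein of mitochondrial dynamics, was the most abundant of these at a mean of 19.5 TPM (log2 fold change -0.15). *Slc25a43* had the lowest log2 fold change of carriers with at least 1 TPM, -0.79 (standard error 0.41, unadjusted p = 0.0803, edgeR).

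The 4 carriers that were not tested had 0 to 15 counts (*Slc25a2*), 2 to 12 (*Slc25a34*), 0 to 14 (*Slc25a41*) and 0 to 8 (*Slc25a54*) per culture. For these genes 3 counts, the most that a count of 0 allows, corresponded to 0.0181 to 0.0641 TPM, a limit that covers counting error only. Across the 43 carriers tested, the median coefficient of variation between cultures was 24.3% in controls and 17.2% after GDNF, where all genes had 26.1% and 18.4%. The carriers lie on 19 chromosomes, with 4 on the X chromosome. For several carriers the annotation has exons of another gene on the opposite strand, most for *Slc25a35* (1151 bases shared with *Rangrf*), and strand handling is not stated, so such reads cannot be told apart.

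When the kind with *Xist* and the kind with Y-linked RNA were compared separately, each with 2 GDNF and 2 control cultures, the 7 carriers past the unadjusted threshold gave the following values, whose direction is no support since they were chosen on the pooled difference and 6 of them do not overlap. The 4 lower ones differed by -0.22 to -0.77 and the 3 higher ones by 0.35 to 0.63 on the log2(CPM + 1) scale. Of all 43 carriers, 36 had the same sign in both kinds. The share over all genes was not computed, so this count shows nothing particular to the carriers. Leaving out any 1 culture kept the unadjusted p of all 7 under 0.05. Without control culture 3, which had the lowest composition factor, the log2 fold changes were -0.54 for *Slc25a4*, -0.44 for *Slc25a5*, -0.35 for *Slc25a14*, -0.45 for *Slc25a20*, 0.35 for *Slc25a22*, 0.42 for *Slc25a36* and 0.73 for *Slc25a42*. That of *Slc25a14* moved the most, from -0.53. With scaling by library size only, the 4 lower carriers were at -0.43 (*Slc25a4*), -0.31 (*Slc25a5*), -0.29 (*Slc25a14*) and -0.35 (*Slc25a20*).

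Transcript length moved with the comparison in all genes. The median log2 fold change was -0.32 for 3606 genes with a transcript of up to 1500 bp, -0.10 for 5817 genes of 1501 to 3000 bp and 0.21 for 7134 longer genes. For carriers in these classes it was -0.54 (5 genes), -0.15 (24 genes) and -0.04 (14 genes). The 4 lower carriers had transcripts of 1106 to 1866 bp and the 3 higher ones of 2788 to 3172 bp, and the part of length in these values was tested only through an offset. With a per-culture length trend as offset, all 7 kept an unadjusted p under 0.05, but *Slc25a4* became -0.40 and *Slc25a5* -0.30, and *Slc25a14* and *Slc25a20* became -0.38 and -0.47. The higher carriers *Slc25a22*, *Slc25a36* and *Slc25a42* were at 0.40, 0.46 and 0.71. The medians became -0.11 for carriers and -0.03 for all genes.

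**Figure D4:**
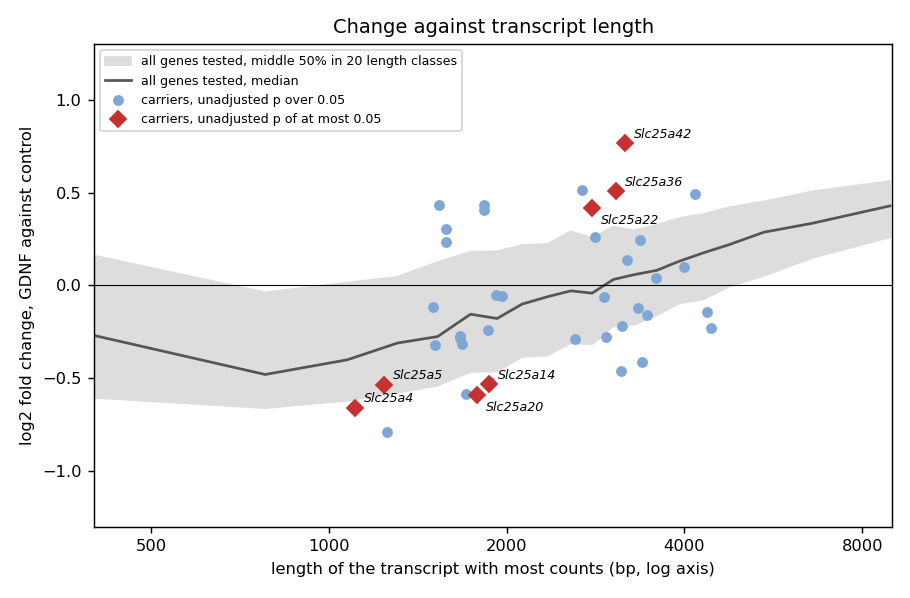
Log2 fold change against transcript length (log axis) for 40 carriers with a mean of at least 1 TPM, over the median (line) and middle 50% (grey) of all 16557 genes in 20 length classes. The 4 carriers lower at an unadjusted p of 0.05 are at most 1866 bp long and the 3 higher ones at least 2788 bp.

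Ratios within a culture do not depend on its composition factor, so 8 pairs of related carriers were compared by the log2 ratio of counts per transcript length, with exact two-sided permutation tests over 70 assignments. These cannot give a p under 0.0286. Dividing by a fixed length does not remove a length trend that differs between cultures. *Slc25a33* and *Slc25a36*, for example, have transcripts of 1877 and 3061 bp. The part of length in the differences of the ratios was not tested. After adjustment over the 8 pairs 0 passed 0.05. The ratio of *Slc25a33* to *Slc25a36* was 1.10, -0.19, 0.08 and -0.31 in control cultures 3, 7, 14 and 21 and -0.28, -1.12, -0.69 and -1.27 in GDNF cultures 6, 12, 17 and 22. The groups overlapped through control 21 and GDNF 6. The means were 0.17 ± 0.64 and -0.84 ± 0.45 (SD, n = 4), a difference of -1.01 (standard error 0.39, exact permutation p = 0.0571, adjusted p = 0.457). The balance of *Slc25a4* to *Slc25a5* was 0.30 ± 0.25 in controls and 0.20 ± 0.08 after GDNF (SD, n = 4; exact permutation p = 0.543), a difference of -0.10 with a standard error of 0.13, so both translocases were lower by amounts that could not be told apart.

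*Slc25a39* over *Slc25a40* was 3.16 ± 0.56 and 2.67 ± 0.45 (SD, n = 4; exact permutation p = 0.257), and *Slc25a12* over *Slc25a13* was -0.09 ± 0.60 and 0.22 ± 0.42 (SD, n = 4; exact permutation p = 0.429). *Slc25a37* over *Slc25a28*, *Slc25a24* over *Slc25a25*, *Slc25a23* over *Slc25a24* and *Slc25a10* over *Slc25a11* had exact permutation p-values of 0.629, 0.286, 0.371 and 0.171. These p-values do not show that the ratios were alike.

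**Figure D5:**
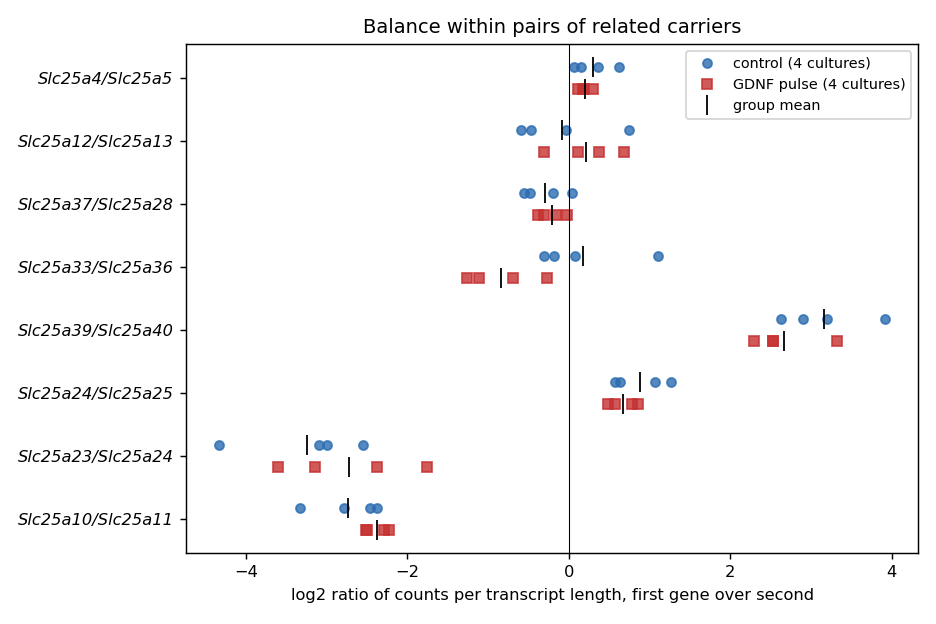
Log2 ratio of counts per transcript length within 8 pairs of related carriers, with a circle for each control culture, a square for each GDNF culture and a bar for the group mean. The largest difference of means is -1.01, for *Slc25a33* over *Slc25a36*, and the groups overlap there.

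Carriers are made in the cytosol and reach the inner membrane through the TOM complex of the outer membrane, small TIM chaperones and the TIM22 insertase. Of 12 genes of this route 11 were in the tables and tested, all 11 had a log2 fold change below 0, and 9 were lower at an unadjusted p of 0.05, where 12.9% of all genes were, with 0 past the adjusted p. Their median was -0.58, beside -0.12 for the carriers and 0.03 for all genes. *Timm10*, a small TIM chaperone, was at 38.6 ± 12.3 CPM in controls and 22.3 ± 3.60 after GDNF (SD, n = 4), a log2 fold change of -0.79 (standard error 0.22, unadjusted p = 0.0053, edgeR). *Tomm22*, a TOM receptor, had -0.63 (standard error 0.20). The groups of both did not overlap in CPM but did in TPM (*Timm10* 72.8 to 98.6 in controls and 60.4 to 76.7 after GDNF, *Tomm22* 185 to 224 and 153 to 196). The count depended on scaling and length: it was 3 with scaling by library size only, 7 with the length offset and 5 to 9 with 1 culture left out. It was 5 without GDNF culture 22, 6 without GDNF culture 12 and 7 without control culture 3. The count over all genes moved as well, from 2134 lower in the main fit to 850 with library size only and 1979 with the length offset. Without GDNF culture 22, GDNF culture 12 and control culture 3 it was 1321, 1397 and 1374. The medians of the import genes were -0.33 with library size only, -0.35 with the length offset and -0.36 without control culture 3. Those of all genes in the same fits were 0.25, -0.03 and 0.04. In all of these fits the 11 genes were below 0, and 7 of them have transcripts of up to 1500 bp. In TPM, *Timm9*, *Tomm40* and *Tomm70a* had a higher mean after GDNF and the others a lower one.

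The counts of the other pathway lists at an unadjusted p of 0.05 are read beside 9.25% of all genes higher and 12.9% lower, and with lists this short no difference between them was tested. Of the carrier relatives with other names, 0 were higher and 1 was lower of 3 tested, *Mtch2*, an outer membrane insertase, with -0.63 (standard error 0.17, unadjusted p = 0.0048, edgeR). Of 15 other inner membrane transporters 2 were higher and 3 lower, among them *Mpc1*, a subunit of the pyruvate carrier, with -0.59. Of 3 outer membrane channels 0 were higher and 2 lower, with *Vdac3* at -0.57. The enzymes of the malate-aspartate shuttle and citrate route had 0 higher and 2 lower of 9, those of the carnitine shuttle and beta-oxidation 0 and 1 of 10, and those of ornithine and proline metabolism 0 and 1 of 5. Of 6 haem and iron-sulfur cluster genes 0 were higher and 2 lower, with *Glrx5*, an iron-sulfur cluster carrier, at -0.73 (standard error 0.20, unadjusted p = 0.0044, edgeR). Of 10 regulators of mitochondrial biogenesis, 1 was higher, the coactivator gene *Ppargc1b* (log2 fold change 0.74), and 0 lower, with a median of -0.11.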

How the data were processed

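RNA was isolated from 8 tubuloid cultures (4 GDNF, 4 control), and SMART-Seq v4 libraries with poly-A selection were sequenced as 75 bp paired-end reads. The paper describes a run split over 2 lanes that took 4 libraries apiece. It does not say which cultures shared a lane, so lane may coincide with group. The part of lane in the differences between the groups was not tested. The authors mapped reads with STAR to mm10 and deposited whole-number counts, FPKM and TPM per RefSeq transcript; versions, strand and the handling of shared reads are not given in the sources used here, and the submitters' processing notes also name featureCounts and DESeq2. The deposited FPKM values (counts per length and per table total) were used only to obtain transcript lengths. The deposited TPM values are the authors' length-scaled levels, with no composition correction.

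Counts were summed per symbol, filtered with filterByExpr and compared in R 4.3.3 by edgeR 4.0.16 (TMM, quasi-likelihood test, Benjamini-Hochberg adjustment over 16557 genes). Pair ratios (1 count added, mean of at least 20 counts) were compared by exact permutation tests. Alternatives were limma 3.58.1 (voom, quality weights), DESeq2 1.42.0, other scalings and filters, 1 transcript per gene, a covariate for the kind of culture, a length trend (spline, 5 degrees of freedom) as offset and leaving out each culture. Fits were tested on simulated counts. Summed symbols count shared reads several times. At 72991721 to 97490625 counts per culture, counting error is small beside the spread between cultures except for genes of a few counts.

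Carriers, gene lists and tests were chosen with earlier results of these data known. Values per culture are given for carriers with an unadjusted p of at most 0.05 and no overlap in CPM, for the 8 with the highest mean TPM, and for genes of any pair with p of at most 0.05; the most abundant genes of each role and pathway genes with an unadjusted p of at most 0.01 are named. *Slc25a10*, *Slc25a13*, *Slc25a18*, *Slc25a21*, *Slc25a23*, *Slc25a27*, *Slc25a31*, *Slc25a35*, *Slc25a43*, *Slc25a47*, *Timm9*, *Tomm40*, *Tomm70a* and *Ppargc1b* were named outside this rule, after their values were seen. Values of 1 carrier alone are left out of the text and figures, and it stays in the counts over the family. Promoters are from RefSeq (GRCm38.p6), coordinates from RefSeq GRCm38. Permutations and figures used Python 3.11.15, SciPy 1.17.1, pandas 2.3.3, matplotlib 3.10.9 and NumPy 2.4.6.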

Additional observations from a re-analysis of the deposited data

Results flagged for a closer look

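In 102 groups of 4 values (CPM of the carriers, ratios within pairs and the summed TPM of the family), a culture lying far from the other 3 (Dixon's criterion at 95%) was found in 8, all in CPM, where about 5 are expected by chance (1 in 20). *Slc25a17* was at 169 CPM in control culture 3 against 73.8 to 87.2 in the other controls, and at 119 CPM in GDNF culture 6 against 69.0 to 76.8 in the other GDNF cultures. *Slc25a37*, mitoferrin, was low in control culture 3 at 21.04 CPM against 40.5 to 44.4. GDNF culture 6 was also apart for *Slc25a29* at 5.90 CPM against 3.19 to 3.22. The same culture had *Slc25a35* at 8.36 CPM against 4.48 to 5.08 and *Slc25a47* at 4.90 CPM against 2.24 to 2.47. *Slc25a36* was at 64.1 CPM in GDNF culture 22 against 50.4 to 52.6, and *Slc25a44* at 84.0 CPM in GDNF culture 17 against 65.8 to 66.8. Thus 6 of the 8 fell in control culture 3 or GDNF culture 6, the 2 cultures with the lowest stroma markers and with both *Xist* and Y-linked RNA.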

How the results depend on the processing

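No paired analysis was possible because the groups share no culture number. Of 216 values of 12 named carriers under 18 alternatives, 215 kept their direction. This count is no support, since the alternatives refit the same cultures and 7 of the carriers were chosen on the main fit. *Slc25a17* (-0.27) lay between -0.48 and 0.085 with 1 culture left out and turned to 0.085 without control culture 3. With DESeq2, 1066 genes and 2 carriers passed the adjusted p, *Slc25a4* and *Slc25a5* among the latter, and under every other alternative 0 did. With library size only, 3299 genes were higher and 850 lower at an unadjusted p of 0.05, with 9 carriers higher and 2 lower and a carrier median of 0.10. With the length offset 939 genes were higher. Limma-voom gave 5 carriers and 1649 genes higher, and DESeq2 gave 7 carriers and 2522 genes lower. The main fit had 1531 genes higher and 2134 lower. Leaving out 1 culture gave 871 to 1713 genes higher, 1321 to 2577 lower, 3 to 5 carriers higher (5 without GDNF culture 6 or control culture 14), 4 to 7 lower (7 without control culture 7) and medians of -0.20 to -0.02. Genes higher were 924, 871, 985 and 986 without GDNF cultures 12 and 22 and control cultures 3 and 21, and genes lower 1397, 1321 and 1374 without the first 3 of these. The ratio of *Slc25a4* to *Slc25a5* differed by -0.18 to 0.00 and turned to 0.0023 without control culture 14, and that of *Slc25a37* to *Slc25a28* differed by -0.00 to 0.20 and turned to -0.0045 without control culture 3. The ratio of *Slc25a33* to *Slc25a36* had an exact p of 0.0286 to 0.114 with 1 culture left out. With TPM summed over transcripts, the share of *Slc25a4*, *Slc25a5* and *Slc25a3* was 55.8% in controls and 48.9% after GDNF. The causes were not tested. Carriers with few counts, such as *Slc25a31* and *Slc25a18*, are limited by depth.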
